A study of Homo sapiens with 8 samples.

Results

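The 10 genes described here are 6 ligands of the tumor necrosis factor (TNF) superfamily (LTB, LTA, TNF, TNFSF9, TNFSF10 and TNFSF15) and 4 receptors of the TNF receptor superfamily (TNFRSF9, TNFRSF12A, TNFRSF21 and LTBR). They were taken by gene symbol from the 19053 genes that could be matched on the array, and all 10 were found. A549 cells, a long-established human lung cancer line, were treated with EEDS, the ethanol extract of Descurainia sophia seeds, or with helveticoside, a cardiac glycoside. The EEDS groups were a vehicle control and doses of 1.25, 5 and 20 μg/mL, and the helveticoside groups were a vehicle control of their own and doses of 3.75, 15 and 60 nM. The labels give an exposure of 48 h in a protocol worded for a viability assay, and the study's methods give a shorter time for the arrays. RNA from 3 cultures was pooled for each group and hybridized to 1 single-color array, so no dose had a replicate and the 8 arrays limit the precision of every value. All groups were the same cell line, grown in the same medium. In such pooled RNA, more cells that make a transcript and more transcript per cell cannot be told apart.

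Ligands of the TNF superfamily are mostly membrane-bound or shed trimers that cluster their receptors. The receptors either carry a death domain or recruit TRAF adaptor proteins, and many of them activate the transcription factor NF-kappa B, which in turn drives several of these ligands. TNF, LTA and LTB are best known from immune cells, TNFRSF9 (4-1BB) and its ligand TNFSF9 from T cell costimulation, and LTBR, TNFRSF12A and TNFRSF21 from epithelial and other tissue cells.

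LTB and TNFRSF9 were not well above background on the controls and rose with both agents, and their promoters are given here for that reason. Those of TNFSF9, which rose from a measured level, and of TNFSF15, which was highest below the top dose in both series, are given beside them. The sequences are the 250 bases before the annotated start, 5′ to 3′ on the strand of the gene, from RefSeq on GRCh38.p14. Capitals mark every match, on either strand, to the kappa B motif, the AP-1 motif (TGANTCA), the cAMP response element (TGACGTCA), the EGR motif (GCGNGGGCG) or the CArG box.
LTB, chr6:31582426-31582675, minus strand: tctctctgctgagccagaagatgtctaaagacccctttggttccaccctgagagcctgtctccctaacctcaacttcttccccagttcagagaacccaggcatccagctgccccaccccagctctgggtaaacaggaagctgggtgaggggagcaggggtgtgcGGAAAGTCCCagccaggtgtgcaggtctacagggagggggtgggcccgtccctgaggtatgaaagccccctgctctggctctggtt
TNFRSF9, chr1:7940840-7941089, minus strand: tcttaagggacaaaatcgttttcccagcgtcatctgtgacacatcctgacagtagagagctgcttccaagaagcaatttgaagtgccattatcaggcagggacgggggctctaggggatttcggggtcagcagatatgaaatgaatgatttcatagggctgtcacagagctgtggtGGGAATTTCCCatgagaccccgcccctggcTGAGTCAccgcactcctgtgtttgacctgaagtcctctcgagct
TNFSF9, chr19:6530776-6531025, plus strand: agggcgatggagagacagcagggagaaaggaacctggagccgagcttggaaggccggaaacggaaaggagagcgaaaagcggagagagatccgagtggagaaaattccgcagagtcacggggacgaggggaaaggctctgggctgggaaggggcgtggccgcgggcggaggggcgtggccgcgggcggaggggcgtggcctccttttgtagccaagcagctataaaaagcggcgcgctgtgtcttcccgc
TNFSF15, chr9:114792531-114792780, minus strand: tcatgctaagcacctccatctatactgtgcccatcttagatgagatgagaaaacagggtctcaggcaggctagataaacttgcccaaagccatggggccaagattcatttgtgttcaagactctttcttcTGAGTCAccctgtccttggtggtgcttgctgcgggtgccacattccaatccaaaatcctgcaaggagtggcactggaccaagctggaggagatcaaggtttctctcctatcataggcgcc
LTB held 1 kappa B match that began 86 bases before the start. TNFRSF9 held 2 overlapping kappa B matches, at 74 and 73 bases, and an AP-1 match at 44 bases. TNFSF15 held an AP-1 match at 120 bases and no kappa B match, and TNFSF9 held none of the 5 motifs. Windows were found for 9 genes (all except TNFRSF12A). A kappa B match was in 2 of these 9, and in 9.57% of the 27305 gene windows in the table. An AP-1 match was in 2 of the 9 and in 6.6% of all windows, and an EGR match in 1 of the 9, that of TNF, and in 8.25% of all windows. No match to the cAMP response element (1.77% of all windows) or the CArG box (1.14%) was found among the 9. A match describes the letters of the window and not a site of binding.

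Neighboring doses of each agent differed 4-fold. A slope is the change of the log2 normalized signal per dose step, from a single limma fit over all 8 arrays in which both series had their own intercept and slope. Of the 10 genes, 4 rose with EEDS (LTB, TNFSF9, TNFRSF9 and TNFRSF12A) and 1 fell (TNFRSF21) at a Benjamini-Hochberg adjusted p under 0.05 over the 19043 genes tested. Among all genes tested, 7.3% rose and 7.88% fell, 15.2% together. With helveticoside the same 4 genes rose and the same gene fell, where 5.49% of all genes rose and 5.86% fell, 11.3% together. Trends with both agents, all of the same sign, were found for 9.19% of all genes. The 10 genes were chosen with earlier results of these arrays known, so these counts are a description. LTA, TNF, TNFSF10, TNFSF15 and LTBR did not pass the test with either agent. The calls needed all 8 arrays: with the 4 arrays of a series alone, or without the lowest, middle or top dose, limma called 0 of the 10 genes with either agent, and 4 to 6 had an unadjusted p under 0.05.

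Each dose was also compared with its series' vehicle control, and the 3 doses of an agent share that control array. A ratio was counted when both arrays were well above background by the scanner software's call. Where only the brighter array was, a lower bound was counted instead, which sets it against the higher of the dim probe's own signal and the lowest signal called well above background on the dim array. At 1.25 μg/mL EEDS, 4 of the 10 genes were more than 2-fold higher (3.09% of all genes) and 0 lower (2.46%), and at 5 μg/mL 4 were higher (5.89%) and 1 was lower (6.56%). At 20 μg/mL, 5 were higher (11.4%) and 1 was lower (12.4%). With helveticoside, 1 was higher at 3.75 nM (1.21%) and 0 lower (1.1%). At 15 nM, 4 were higher (4.17%) and 0 lower (5.37%), and at 60 nM 4 were higher (7.85%) and 1, TNFRSF21, was lower (9.66%). The panels of levels by dose show 5 genes well above background on all 8 arrays and 2, LTA and TNFSF10, on none.

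**Figure D1:**
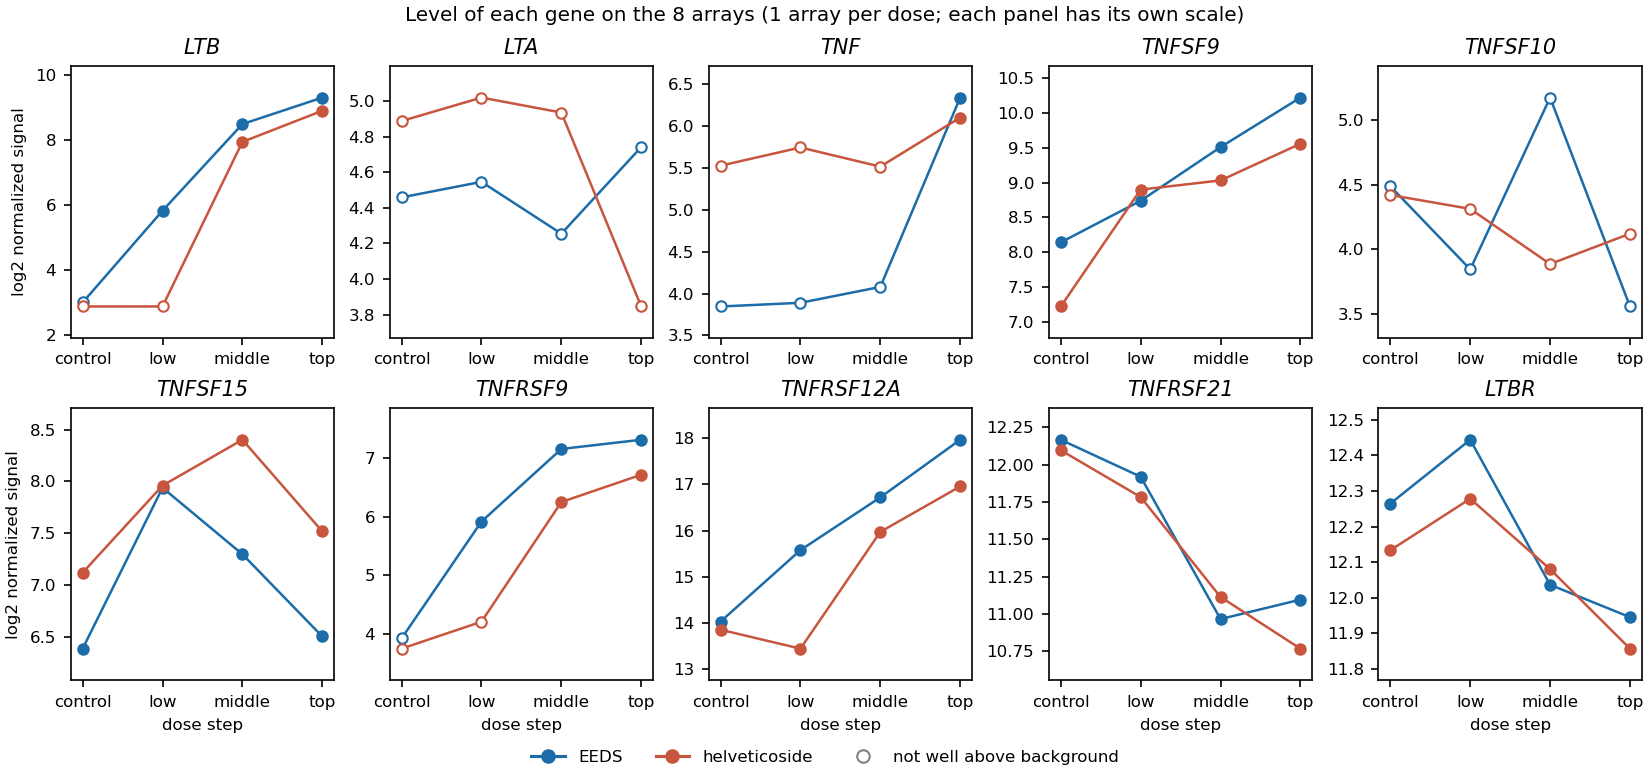
Log2 normalized signal (y axis, a scale of its own in each panel) of the 10 genes at the vehicle control and the low, middle and top dose (x axis) of EEDS (blue) and helveticoside (red), 1 array per point. Open points were not well above background. LTB and TNFRSF9 go from open points at the controls to filled points at the middle and top doses of both agents, and TNFRSF21 declines from 12.17 and 12.10 on the controls to 11.10 and 10.77 at the top doses.

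LTB encodes lymphotoxin beta, the membrane anchor of the LTA-LTB heterotrimer that binds LTBR. Its log2 normalized signal was 3.001 on the EEDS control and 5.82, 8.49 and 9.30 at 1.25, 5 and 20 μg/mL. On the helveticoside arrays it was 2.88 on the control, 2.88 at 3.75 nM, 7.94 at 15 nM and 8.90 at 60 nM. The probe was not well above background on either control or at 3.75 nM, and it was well above background on the other 5 arrays. As a bound, LTB was higher by a factor of at least 2.43, 15.4 and 27.1 at the increasing doses of EEDS, and of at least 5.26 and 10.2 at 15 and 60 nM helveticoside. The fitted slope was 2.16 per step with EEDS (SE 0.45, adjusted p = 0.0352 by limma) and 2.31 with helveticoside (SE 0.45, adjusted p = 0.0362). The size of these values depends on the dim controls and the background correction. With the signal as scanned and with normexp, the bounds were 8.94-fold and 8.95-fold at 20 μg/mL and 5.37-fold and 5.54-fold at 60 nM. With the deposited values they were 28.9-fold at 20 μg/mL and 4.44-fold at 60 nM. With quantile normalization within each series they were 34.0-fold and 8.62-fold. The slopes were 1.12 and 1.16 as scanned, 1.12 and 1.13 with normexp and 1.72 and 1.03 with the deposited values, all past the threshold. When every value not well above background was raised to the lowest signal called well above background on its array, a setting chosen after the data were seen, the slopes were 1.69 and 1.204, also past the threshold. Between arrays that both measured LTB above background, its log2 signal was 2.66 higher at 5 than at 1.25 μg/mL, 0.82 higher at 20 than at 5 μg/mL and 0.96 higher at 60 than at 15 nM.

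TNFSF9 encodes the 4-1BB ligand, the partner of TNFRSF9. It was well above background on every array, with a log2 normalized signal of 8.14, 8.74, 9.51 and 10.22 from the EEDS control to 20 μg/mL and of 7.22, 8.90, 9.03 and 9.56 from the helveticoside control to 60 nM. In both series each dose lay above the one before it. TNFSF9 was 4.22-fold higher at 20 μg/mL EEDS and 5.04-fold higher at 60 nM helveticoside than on its own control. The slopes were 0.70 per step with EEDS (SE 0.14, adjusted p = 0.0342) and 0.71 with helveticoside (SE 0.14, adjusted p = 0.0390). The helveticoside control was 0.92 lower than the EEDS control on the log2 scale, and against the other series' control the log2 ratios at the top doses were 2.99 for EEDS and 1.41 for helveticoside. At 3.75 nM TNFSF9 was 3.19-fold higher than its own control, and no other of the 10 genes was over 2-fold there. Against the EEDS control it was 1.69-fold higher, and TNFSF15 was 2.98-fold higher.

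TNF encodes the founding cytokine of the superfamily. Its log2 normalized signal was 3.85, 3.89, 4.08 and 6.34 from the EEDS control to 20 μg/mL, and 5.52, 5.74, 5.51 and 6.10 from the helveticoside control to 60 nM. The probe was well above background at the top doses only. The bounds for TNF were 3.47-fold at 20 μg/mL EEDS and 1.47-fold at 60 nM helveticoside, each as at least that much higher. Neither trend passed the threshold (adjusted p = 0.0933 and 0.804). The control levels of 3.85 and 5.52 were both at background, so no difference between them was measured.

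LTA, which encodes lymphotoxin alpha, was not well above background on any array. Its log2 normalized signal lay between 4.25 and 4.74 on the EEDS arrays and between 3.85 and 5.02 on the helveticoside arrays, so no fold is given. TNFSF10, which encodes the death ligand TRAIL, was not counted as well above background on any array either, since at most 30% of its spots were, and its log2 normalized signal lay between 3.56 and 5.17 with EEDS and between 3.89 and 4.42 with helveticoside. It was the only one of the 10 genes with 2 probes, and the brighter of these was printed in up to 10 spots per array. At 5 μg/mL EEDS, where its mean was highest, the SD between those spots was 1.73 on the log2 scale, beside a median of 0.07 over all probes with 5 or more spots. On that array and on the EEDS control, where the SD was 0.81, 30% of the spots were well above background, and on the other 6 arrays 0% were.

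TNFSF15, which encodes TL1A, a costimulatory ligand made by endothelial and myeloid cells, was well above background on all 8 arrays and was not highest at a top dose in either series. Its log2 normalized signal was 6.39, 7.94, 7.30 and 6.50 from the EEDS control to 20 μg/mL, and 7.12, 7.96, 8.40 and 7.52 from the helveticoside control to 60 nM. It was 2.93-fold higher than control at 1.25 μg/mL and 1.08-fold higher at 20 μg/mL. With helveticoside it was 2.43-fold higher at 15 nM and 1.32-fold higher at 60 nM. A straight line through the steps gave slopes of -0.03 (SE 0.30, adjusted p = 1) and 0.16 (SE 0.30, adjusted p = 0.830), and no test of a peaked shape was made. The controls differed by 0.73 on the log2 scale, beside log2 ratios of 1.55 and 0.84 at the lowest doses of EEDS and helveticoside.

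Of the receptors, TNFRSF12A (Fn14), the receptor of the cytokine TWEAK and a gene known to be induced by growth factors and injury, had the widest change of the 5 genes that every array measured above background. Its log2 normalized signal was 14.03, 15.58, 16.72 and 17.96 from the EEDS control to 20 μg/mL, and 13.86, 13.45, 15.97 and 16.96 from the helveticoside control to 60 nM. The EEDS arrays rose at each dose, whereas the array at 3.75 nM helveticoside lay below its control. TNFRSF12A was 2.92-fold, 6.43-fold and 15.2-fold higher at the rising doses of EEDS, and 4.33-fold and 8.56-fold higher at 15 and 60 nM helveticoside. The slopes were 1.29 per step (SE 0.24, adjusted p = 0.0266) and 1.18 (SE 0.24, adjusted p = 0.0375). The controls differed by 0.18 on the log2 scale for this gene.

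TNFRSF9, the costimulatory receptor 4-1BB, had a log2 normalized signal of 3.92, 5.92, 7.16 and 7.32 from the EEDS control to 20 μg/mL, and of 3.74, 4.20, 6.25 and 6.72 from the helveticoside control to 60 nM. As for LTB, both controls and the array at 3.75 nM were not well above background. Its bounds were at least 2.60-fold, 6.14-fold and 6.85-fold higher from the lowest to the top dose of EEDS, and at least 1.63-fold and 2.26-fold higher at 15 and 60 nM helveticoside. The slopes were 1.14 (SE 0.23, adjusted p = 0.0329) and 1.10 (SE 0.23, adjusted p = 0.0419). The helveticoside call was lost with the deposited table of processed values (slope 0.38, adjusted p = 0.0751), with quantile normalization within each series (adjusted p = 0.0573) and with dim values raised (adjusted p = 0.115), whereas the EEDS call held under these settings. The EEDS slope was 0.47 with the signal as scanned and 0.44 with normexp, and the bound at 20 μg/mL was 2.51-fold and 2.37-fold. The helveticoside slope was 0.43 and 0.41 there, both past the threshold.

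TNFRSF21 (DR6), a death domain receptor, was the only one of the 10 genes with a falling trend that passed the test. Its log2 normalized signal was 12.17, 11.92, 10.97 and 11.10 from the EEDS control to 20 μg/mL, and 12.10, 11.78, 11.11 and 10.77 from the helveticoside control to 60 nM. It was 2.10-fold lower at 20 μg/mL EEDS and 2.51-fold lower at 60 nM helveticoside, and the 4 arrays at the middle and top doses were below the 4 others. The slopes were -0.42 (SE 0.10, adjusted p = 0.0439) and -0.47 (SE 0.10, adjusted p = 0.0407). With 75th percentile scaling, which moved the all-gene median at 20 μg/mL EEDS to -0.36 on the log2 scale, TNFRSF21 had a log2 ratio of -0.89. LTBR, the receptor of the LTA-LTB heterotrimer, was well above background on all arrays, with a log2 normalized signal between 11.95 and 12.44 with EEDS and between 11.86 and 12.28 with helveticoside. Its log2 ratios lay between -0.32 and 0.18 at all doses, and its slopes were -0.14 (SE 0.07, adjusted p = 0.240) and -0.10 (SE 0.07, adjusted p = 0.416).

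**Figure D2:**
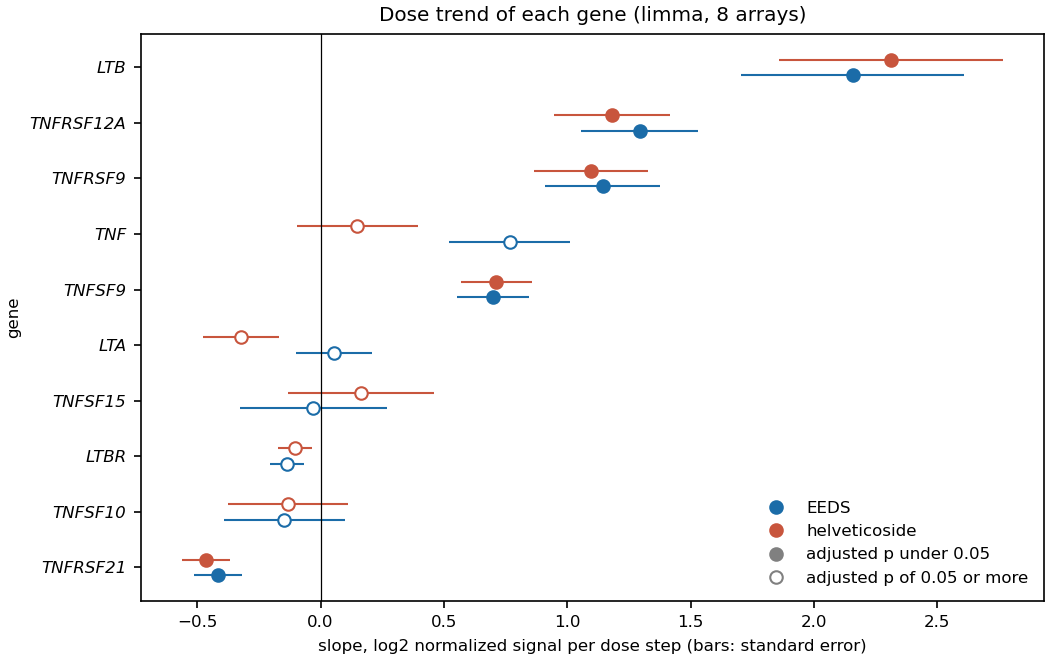
Slope of each of the 10 genes in log2 normalized signal per dose step (x axis), with the standard error from limma as bars, for EEDS (blue) and helveticoside (red). Filled points had an adjusted p under 0.05. LTB, TNFRSF12A, TNFRSF9 and TNFSF9 are filled to the right of 0 for both agents and TNFRSF21 to the left, and TNF shows the widest gap between the agents.

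The doses of the agents are in different units, so their values stand side by side and only the change per step was compared. By limma, 0 of the 10 genes differed in slope between the agents at an adjusted p under 0.05, and 0 at an unadjusted p under 0.05. Over all 19043 genes these counts were 0 and 521. The difference, helveticoside minus EEDS, was 0.16 per step for LTB, with a 95% confidence interval from -1.44 to 1.75. It was 0.01 for TNFSF9 (-0.50 to 0.52), -0.05 for TNFRSF9 (-0.86 to 0.77), -0.11 for TNFRSF12A (-0.94 to 0.72) and -0.05 for TNFRSF21 (-0.39 to 0.29). For TNF it was -0.62 (-1.49 to 0.25) and for LTA -0.38 (-0.92 to 0.17). These intervals do not show that the agents acted alike. Each agent had arrays of its own, so agent and series cannot be told apart.

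LTA, TNF and LTB lie next to each other on chromosome 6 in the annotation, in this order, and were compared with the 2 protein-coding genes on either side of the cluster. Within the cluster, LTB had the slopes given above, TNF 0.77 (SE 0.25) and 0.15 (SE 0.25), and LTA 0.06 (SE 0.15) and -0.32 (SE 0.15) with EEDS and helveticoside. NFKBIL1, which adjoins LTA, fell with EEDS (slope -0.40, SE 0.06, adjusted p = 0.0199) and had a slope of -0.15 with helveticoside (adjusted p = 0.192). ATP6V1G2 did not pass the test with either agent, nor did LST1 and NCR3 on the side of LTB. No array had LST1 or NCR3 well above background. Over all 10 genes, 30 neighbors that were none of the 10 were on the array. Of these, 1 rose and 1 fell with EEDS, and 2 rose and 0 fell with helveticoside. Of all genes tested, 7.3% rose and 7.88% fell with EEDS, and 5.49% rose and 5.86% fell with helveticoside. NCEH1, beside TNFSF10, rose with both agents (slopes 0.62 and 0.65, adjusted p = 0.0129 and 0.0162), and CLDN6, beside TNFRSF12A, rose with helveticoside (slope 0.93, adjusted p = 0.0289) from a control not well above background. CD70, another ligand gene beside TNFSF9, had slopes of 0.20 and 0.33 and did not pass.

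**Figure D3:**
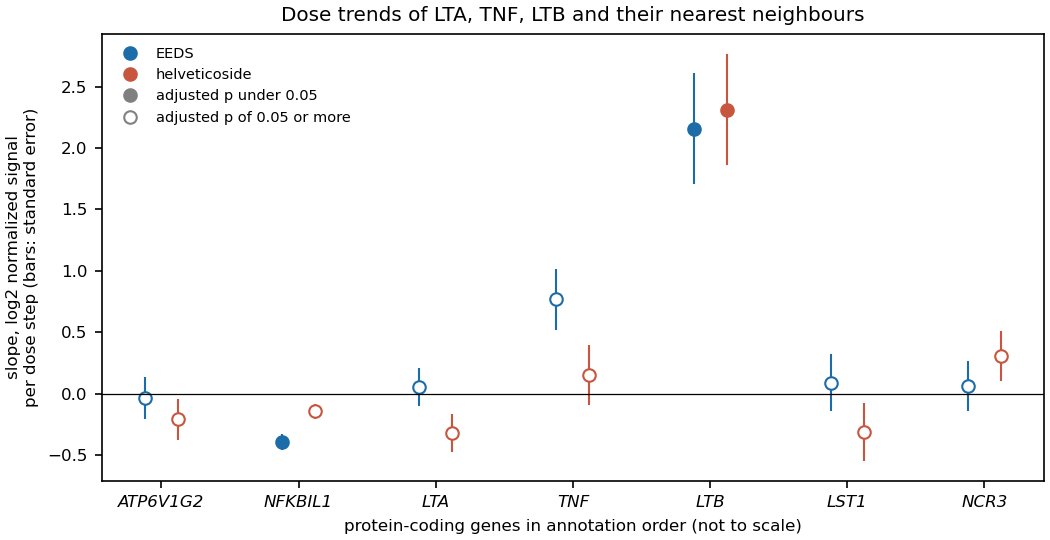
Slope in log2 normalized signal per dose step (y axis), with the standard error from limma as bars, for LTA, TNF, LTB and the protein-coding genes on either side, in annotation order (x axis, not to scale). EEDS is blue and helveticoside red, and filled points had an adjusted p under 0.05. LTB stands above 2 with both agents. The next highest point is TNF with EEDS at 0.77, and NFKBIL1 is filled below 0 with EEDS only.

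The rest of the superfamily was taken as fixed lists. Beside their counts, 7.3% of all genes rose and 7.88% fell with EEDS, and 5.49% rose and 5.86% fell with helveticoside. Of 12 other ligand genes, 0 rose and 1, EDA, fell with EEDS, and by limma 0 moved with helveticoside (3 had an unadjusted p under 0.05). EDA, the ligand ectodysplasin A, had a slope of -0.50 with EEDS (SE 0.11, adjusted p = 0.0385) and was not well above background at 20 μg/mL. At the top doses 7 of these 12 genes with EEDS and 9 with helveticoside were not well above background on either array. TNFSF12, which encodes TWEAK, was 2.17-fold and 2.09-fold lower there, and by limma it did not pass (adjusted p = 0.129 and 0.162). Of 24 other receptor genes, 6 rose with EEDS and 5 with helveticoside, and by limma 0 fell (1 with each agent had a negative slope at an unadjusted p under 0.05). TNFRSF1A was 3.55-fold lower at 20 μg/mL EEDS and 2.65-fold lower at 60 nM helveticoside. By limma its trends did not pass (adjusted p = 0.0905 and 0.161). The median slope of the receptor list was 0.11 and 0.01, and that of all genes tested 0.01 and -0.01. With each agent, 11 of these 24 receptor genes were not well above background on either array at the top dose. Of the TRAIL receptor genes, TNFRSF10A, TNFRSF10B and TNFRSF10D rose with both agents, and the decoy receptor gene TNFRSF10C did not pass (slopes 0.83 and 1.04, adjusted p = 0.104 and 0.0713). TNFRSF10A, which carries a death domain, had slopes of 0.92 and 0.99 with EEDS and helveticoside (adjusted p = 0.0126 and 0.0162), and TNFRSF10B, likewise a death receptor, had 0.85 and 0.77 (adjusted p = 0.0129 and 0.0162). TNFRSF10D, another decoy receptor, was 9.71-fold higher at 20 μg/mL and 5.55-fold higher at 60 nM. FAS (3.62-fold and 4.04-fold) and EDA2R (3.50-fold and 4.45-fold) also rose with both agents, and RELT rose with EEDS (adjusted p = 0.0395) while its helveticoside trend had an adjusted p of 0.151.

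Among 20 adaptors and other proteins that act next to the receptors, 5 rose and 1 fell with EEDS, and 4 rose and 1 fell with helveticoside. The shares of all genes that rose and fell were 7.3% and 7.88% with EEDS and 5.49% and 5.86% with helveticoside. BIRC3, a ubiquitin ligase of the receptor complex and an NF-kappa B target, was 20.2-fold and 11.02-fold higher at the top doses of EEDS and helveticoside. MAP3K14, the kinase NIK of the noncanonical pathway that LTBR, TNFRSF12A and other receptors use, was 13.6-fold and 7.92-fold higher. TRAF2 (slopes 0.50 and 0.41) and BIRC2 (0.60 and 0.42) rose with both agents. TRADD, the death domain adaptor of the TNF receptor, was 5.79-fold and 4.53-fold lower. TNFAIP3, the feedback inhibitor A20, was 22.99-fold higher at 20 μg/mL EEDS (adjusted p of the slope 0.0297) and at least 9.49-fold higher at 60 nM helveticoside (adjusted p = 0.0583). Of 12 NF-kappa B subunits, kinases and inhibitors, 6 rose with EEDS and 3 with helveticoside, and by limma 0 fell, with 0 also at an unadjusted p under 0.05. RELB, a subunit of the noncanonical pathway, was 8.17-fold and 6.69-fold higher at the top doses. The list held 13 genes, of which 12 were matched on the array. NFKB2 was not among the 12, so no value is given for it here. The study's own list of genes up-regulated by EEDS includes NFKB2. NFKB1 (slopes 0.57 and 0.45) and the inhibitor gene NFKBIB (0.69 and 0.61) rose with both agents. REL (slope 0.92), the inhibitor gene NFKBIE (1.24) and the kinase gene CHUK (0.35) rose with EEDS, and their helveticoside slopes of 0.59, 0.90 and 0.24 did not pass.

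**Figure D4:**
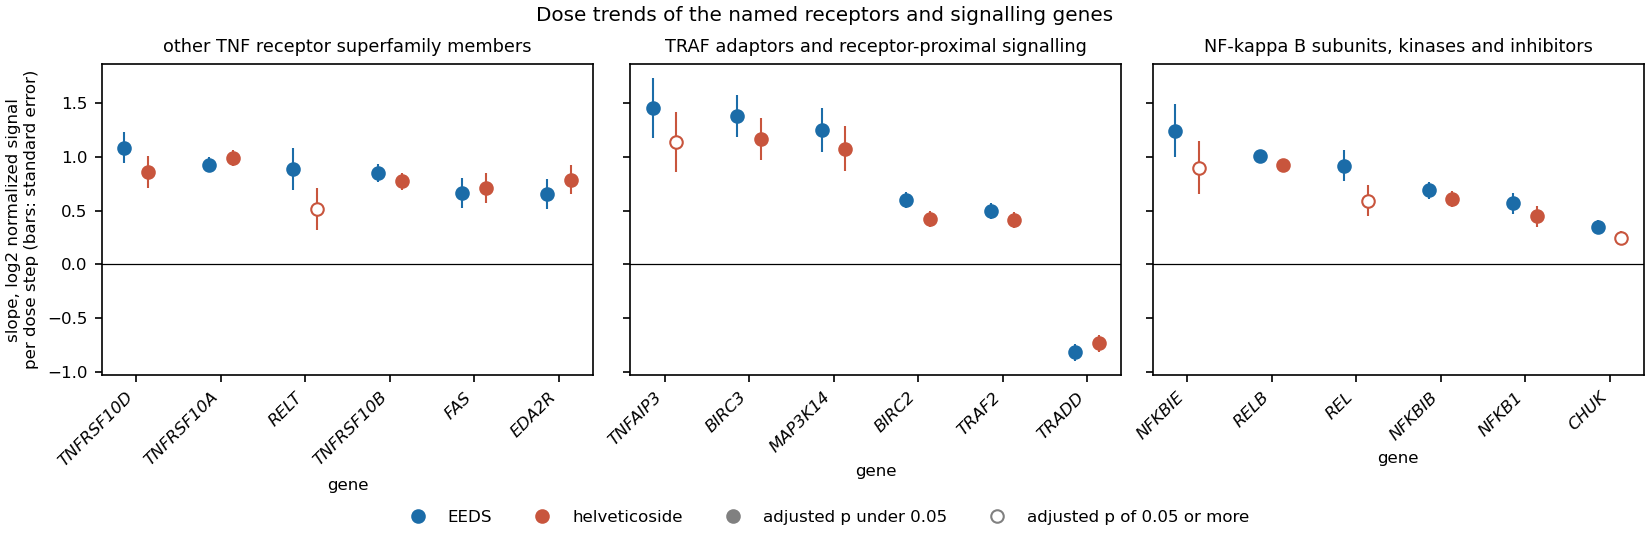
Slope in log2 normalized signal per dose step (y axis), with the standard error from limma as bars, for EEDS (blue) and helveticoside (red). Genes (x axis) are those of the receptor, adaptor and NF-kappa B lists that passed the trend test with either agent. Filled points had an adjusted p under 0.05. TNFRSF1A and TNFRSF10C did not pass and are not drawn. Of the genes drawn, TRADD is the only one with slopes under 0, and BIRC3, MAP3K14 and TNFAIP3 have slopes above 1 with both agents.

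For the 7 genes well above background on at least 4 arrays (LTA, TNF and TNFSF10 were not), the most similar genes were found by the Euclidean distance of the 6 log2 ratios, over 13209 candidate genes that met the same limit. The 3 nearest to LTB were NOG, STC2 and CXCL8, and those nearest to TNFRSF9 were DAAM1, MIR100HG and EMP1. The ratios of LTB and TNFRSF9 are to controls not well above background, and their distances depend on those dim values. The distances were 1.97, 2.82 and 3.06 for LTB, so its nearest genes were not close. For TNFRSF9 they were 0.76, 0.78 and 0.80. At 3.75 nM helveticoside the log2 ratio of CXCL8 was 2.66 and that of LTB 0.0016. RASSF1 (0.77), DNAJB2 (0.78) and PTX3 (0.85) were nearest to TNFRSF12A. LIFR (0.86), RARA (0.87) and ATG4D (0.89) were nearest to TNFSF9, and CACNG1 (0.50), CRADD (0.55) and ARSI (0.60) to TNFSF15. MRTFB (0.18), GTF2I (0.27) and INO80B (0.28) were nearest to TNFRSF21, and SLC25A1, DDX54 and TRAPPC6A (0.14 to 0.16) to LTBR, whose own ratios were small. These likenesses rest on 6 ratios to 2 shared controls and say nothing of shared control of the genes.

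The markers of the cell line were checked beside these results. All 7 epithelial markers of A549 (KRT8, KRT18, KRT19, EPCAM, CDH1, AKR1B10 and ALDH1A1) were well above background on all 8 arrays. Of these, 4 fell with EEDS (KRT8, KRT18, KRT19 and CDH1) and 3 with helveticoside (without KRT8, adjusted p = 0.0607 by limma). Among all genes tested, 7.88% fell and 7.3% rose with EEDS, and 5.86% fell and 5.49% rose with helveticoside. Some immune cell markers were also called well above background: 4 to 7 of 9 T and NK cell markers, 1 or 2 of 4 B cell markers and 2 or 3 of 5 myeloid markers per array, on the controls as well. The same call was made for 56.9% to 66.9% of all probe spots per array. With EEDS the number of T and NK cell markers well above background was 5, 6, 6 and 7 from the control to the top dose, with CD2 added at all doses and GNLY at the top dose. With helveticoside it was 4 on the first 3 arrays and 5 at 60 nM, with NKG7 added. GNLY, a granule protein of killer cells, had a bound of at least 4.78-fold higher at 20 μg/mL EEDS, with an adjusted p of 0.110 for its slope. CD3E, CD3G, MS4A1, CD79B, CSF1R and FCGR3A were not well above background on any array. The summed normalized signal of the T and NK cell markers was 11167 on the EEDS control and 6935 at 20 μg/mL, and 20190 on the helveticoside control and 13104 at 60 nM. That of the B cell markers went from 4702 to 2116 with EEDS and from 7127 to 4375 with helveticoside. That of the myeloid markers went from 3081 to 1521 and from 2685 to 936. Single markers went both ways. At the top doses of EEDS and helveticoside CD14 was 2.94-fold and 4.79-fold lower, and CD68 was 1.85-fold and 1.91-fold higher. CD4 was 1.69-fold and 1.56-fold lower, and NKG7 was 1.56-fold and at least 1.44-fold higher. None of these genes passed the test. By limma, 0 immune markers rose with either agent (2, both T and NK cell markers, had a rising slope at an unadjusted p under 0.05 with EEDS and 0 with helveticoside), and CD79A fell with EEDS (adjusted p = 0.0430). The part of other cells in the results was not tested.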

How the data were processed

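Gene expression was measured on 8 single-color Agilent arrays of A549 cells, 4 per agent, grouped by the agent and dose in the sample titles. The authors deposited scanner intensity values for every spot, from Agilent Feature Extraction. The software version and the genome build are not given in the sources used here. Of 43118 probe spots per array, 0 were saturated and 246 to 331 were outliers and left out. The median signal was 182 to 278 over a background of 27 to 34, and 56.9% to 66.9% of spots were well above background. A second deposited table of linear intensity, with medians of 120.1 to 121.2 for EEDS and 192 for helveticoside, ranks probes as the median signal minus background does (Spearman's rho 1.00). Each series was normalized apart in it, so it served as an alternative.

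Processed signals were averaged per probe, log2-transformed and quantile-normalized over the 8 arrays. Accessions matched 24809 of 34105 probes to 19053 genes of GRCh38.p14, and the probe with the highest mean stood for its gene. Genes were tested when they reached 1.4 times the local background, the limit in the study's methods, on at least 1 array of each series (19043 genes, the 10 genes included). Values under it were set to the higher of themselves and the lowest detected signal. Slopes on the dose step (0 to 3) came from limma 3.58.1 (R 4.3.3, statmod 1.5.0, trend and robust estimation, 4 residual degrees of freedom), with Benjamini-Hochberg adjustment over all genes, tested on simulated data. Scatter about the trend lines stands in for replicates, so no single dose has a p-value. Other values came from Python 3.11.15 with numpy 2.4.6 and pandas 2.3.3.

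The 10 genes, the gene lists, the tests and the rule for named genes were chosen with earlier results of these data known. The rule took list genes that passed the trend test (at most 6 per list, by top-dose ratio, or the 2 with the largest ratios where none passed, namely CD4, NKG7, CD14 and CD68), the 2 coding genes on each side and the 3 nearest patterns. GNLY, TNFRSF1A and TNFSF12 were named after their values were seen. Alternatives changed the background correction, scaling, filter, probe rule, arrays fitted and control array.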

Additional observations from a re-analysis of the deposited data

How the results depend on the processing

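The dose trends rest on the fit over all 8 arrays. The number of the 10 genes with a trend, 5 for each agent, was 0 for both when only the 4 arrays of a series were fitted and when the lowest, the middle or the top dose of each series was left out, and in these fits limma called 0 of all 19043 genes (3262 to 5447 genes had an unadjusted p under 0.05, and 4 to 6 of the 10). The slopes of the 5 genes kept their sign in each of these fits. When only genes that all 8 arrays measured above background were tested, added after the data were seen, the number was 3 for each agent, because LTB and TNFRSF9 were not in it. Raising dim values, also added later, gave 6 for EEDS, with TNF as the sixth (slope 0.55, adjusted p = 0.0254), and 4 for helveticoside. The number over 2-fold at 1.25 μg/mL EEDS, 4 as reported, was 2 with the signal as scanned, 1 with normexp and 2 against the other series' control. The numbers at the other doses stayed within 1.5 times under every alternative run. At 20 μg/mL EEDS, TNFRSF21 was less than 2-fold lower with the signal as scanned (log2 ratio -0.92), normexp (-0.92), 75th percentile scaling (-0.89) and the other control (-0.9997), and the bound of TNF was under 2-fold with the first 2 of these (0.78 and 0.72) and with the other control (0.79). At 60 nM helveticoside, the bound of TNFRSF9 was under 2-fold with the signal as scanned (0.52), normexp (0.62), 75th percentile scaling (0.84) and the deposited values (0.53). Against the other control, TNF and TNFSF15 were over 2-fold there (1.56 and 1.13). Slopes that changed sign all belonged to genes without a trend. The EEDS slope of LTA was -0.14 with 75th percentile scaling and -0.10 without the top dose, and its helveticoside slope was 0.0373 with the signal as scanned, 0.0244 with normexp, 0.0203 with the deposited values and 0.0239 without the top dose. The EEDS slope of TNFSF10 was 0.00918 with the mean of all probes, 0.34 without the top dose and 0.13 with dim values raised. The EEDS slope of TNFSF15 was 0.10 without the lowest dose and 0.46 without the top dose, and the helveticoside slope of TNF was -0.00567 without the top dose. The cause of these changes was not tested. No paired analysis was possible because each group had 1 array and the labels give no replicate numbers.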
